A study of Mus musculus with 16 samples.

Results

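The Rhox genes (reproductive homeobox on the X chromosome) were described through 7 members, Rhox1, Rhox2a, Rhox5, Rhox6, Rhox9, Rhox10 and Rhox13, out of 42 Rhox genes among the 35975 genes with a row in the tables. The members were chosen by name, with earlier results of these data known. The 42 genes, 34 of them protein-coding and 8 pseudogenes, filled 1092.2 kb of the X chromosome on GRCm38, from 37213804 to 38306028. Bulk messenger RNA was sequenced from the mouse embryonic stem cell line ES-E14TG2a (E14) in 2 genotypes, written WT and TKO. The labels do not expand TKO and do not say how many clones it stands for. Day 0 cells of both genotypes grew on fibronectin in serum-free N2B27 medium supplemented with vitamin C, LIF and blockers of the kinases MEK and Gsk3. Days 2, 4 and 7 followed a change to Fgf2, Activin A and Knock-out Serum, which turns naive stem cells into epiblast-like cells, and the cells were split again at day 4. Each of the 8 groups had 2 libraries (16 together) from what the labels call biological replicates. It is not stated whether these were separate thaws or separate dishes, so p-values measure only the spread between such samples.

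Rhox genes encode homeodomain transcription factors that are expressed mainly in testis, epididymis, ovary and placenta. In the embryo proper their promoters acquire DNA methylation around implantation, and the cluster is a classical example of genes silenced by DNA methylation in embryonic but not placental cells. Epiblast-like cells are a culture model of that stage. Rhox5, also called Pem, is the founding gene and is best known from Sertoli cells. Rhox6 and Rhox9 are close relatives known from germ cells and placenta, Rhox10 acts in the establishment of spermatogonial stem cells, and Rhox13 is a germ cell gene of testis and fetal ovary. Rhox2a heads the row of duplicated Rhox2, Rhox3 and Rhox4 genes.

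A library held 33168178 to 58197630 estimated counts. Dnmt1, the maintenance DNA methyltransferase, stood between 310 and 545 CPM (counts scaled to library size) in the 8 WT libraries and between 36.2 and 55.9 CPM in the 8 TKO libraries. The TKO libraries of day 4 stood apart from each other: Dnmt3a, a de novo methyltransferase, was at 187 CPM in replicate 1 and 33.9 CPM in replicate 2. Summed markers of primitive and visceral endoderm ran from 18.6 to 71.3 CPM in that pair. The day 4 fold changes and call counts of single Rhox genes were therefore also computed without either library; sums of copies, medians and list counts were not. Other pairs of replicates differed too. Of genes at 5 CPM or more in a library, 229 were over 2-fold apart within TKO day 4. The same count was 130 within WT day 0, 99 within WT day 4 and 8 to 25 within the other groups. Against counting noise, the chi-square per degree of freedom was highest in WT day 0 (71.3, beside 30.3 in TKO day 4). In bulk RNA, fewer cells of a type and less RNA per cell cannot be told apart.

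RefSeq's table for GRCm38.p6 held a promoter window, 250 bases before to 50 bases after the start, for 5 of the 7 members (Rhox1, Rhox2a, Rhox5, Rhox10 and Rhox13). The upstream 250 bases of 3 members are printed 5′ to 3′ with each CG pair, the site of DNA methylation in mammals, in capitals. They are shown because Rhox2a and Rhox13 rose over the time course in TKO while Rhox1 fell. They lie at chrX:37222259-37222508 on the minus strand (Rhox1), chrX:37244742-37244991 on the plus strand (Rhox2a) and chrX:38120590-38120839 on the plus strand (Rhox13). The GENCODE model of Rhox13 starts further downstream than the RefSeq start, at 38121219.
Rhox1: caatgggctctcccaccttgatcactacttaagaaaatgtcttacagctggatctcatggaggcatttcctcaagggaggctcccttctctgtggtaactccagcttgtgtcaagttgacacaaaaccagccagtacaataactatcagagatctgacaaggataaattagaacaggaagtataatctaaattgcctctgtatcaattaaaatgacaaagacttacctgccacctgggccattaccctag
Rhox2a: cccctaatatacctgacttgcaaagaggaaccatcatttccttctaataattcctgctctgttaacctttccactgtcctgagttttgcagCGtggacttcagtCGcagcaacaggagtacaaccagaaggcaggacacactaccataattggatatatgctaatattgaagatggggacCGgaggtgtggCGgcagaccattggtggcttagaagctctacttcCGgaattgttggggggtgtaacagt
Rhox13: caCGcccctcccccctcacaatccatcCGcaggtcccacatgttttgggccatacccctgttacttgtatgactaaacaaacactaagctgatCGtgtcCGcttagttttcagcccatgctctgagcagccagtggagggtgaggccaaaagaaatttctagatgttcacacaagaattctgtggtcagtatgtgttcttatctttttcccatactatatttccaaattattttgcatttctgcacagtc
The printed stretch of Rhox1 held 0 CG pairs, that of Rhox2a 5 and that of Rhox13 4. In the full window of 300 bases Rhox1 had 0, Rhox5 and Rhox13 had 5 each, Rhox2a 8 and Rhox10 9, and the median of all 32851 windows was 7. None of these is a window rich in CG pairs, since the upper quartile of all windows was 20. Rhox4 windows had the highest counts among the copies, 10 to 12, and Rhox3 windows the lowest, 2 to 4. Letters of 3 motifs were searched on both strands. CACGTG, the E-box bound by Max and its partners, was in 5 of 7 Rhox4 windows and in 7.15% of all windows. CCGGAA, the core of ETS factor sites, was in 7 of 7 Rhox2 windows, in the Rhox5 window and in 14.9% of all windows. GCGGGAA, an E2F site, was in none of the 5 members' windows and in 4.6% of all windows. All 3 motifs contain a CG pair, so each match also counts among the CG pairs of its window. The windows of copies share most of their sequence.

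In WT cells the cluster was transcribed at low levels at days 0 and 2 and was nearly silent from day 4. All Rhox genes together reached 40 and 31.6 CPM at day 0, 29.5 and 34.9 CPM at day 2, 1.83 and 1.55 CPM at day 4, and 0.748 and 0.458 CPM at day 7. In TKO cells the sum stood at 24.2 and 26.6 CPM at day 0, 39.4 and 39 CPM at day 2, 33.2 and 53.5 CPM at day 4, and 66.4 and 71.2 CPM at day 7. The genotypes overlapped at no day but were closest at day 2, and only in WT did the sum of day 7 lie below that of day 0. Of the 7 members, 5 passed the filter on low counts and were tested. Rhox5 was listed at 0 in every library and Rhox10 never exceeded 11 counts.

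Rhox1 (ENSMUSG00000071773.4) sits at the centromeric end of the cluster, at 37213804 to 37222258 on the minus strand. Its libraries read 6.57 and 5.9 CPM in WT and 4.1 and 4.16 CPM in TKO at day 0. At day 2 they read 9.87 and 12.3 CPM in WT and 12.5 and 11.1 CPM in TKO. At day 4 they read 0.121 and 0.0209 CPM in WT and 2.33 and 3.06 CPM in TKO. At day 7 WT was at 0 in both libraries and TKO at 1.09 and 1.43 CPM. Rhox1 thus had its highest level at day 2 in both genotypes, where the libraries of the genotypes overlapped. From there both went down, WT to 0 and TKO to a level below its own day 0. In the order of its 8 groups, all neighbours other than TKO and WT of day 2 were apart.

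Rhox2a (ENSMUSG00000051827.11) lies 31.2 kb further on, at 37244976 to 37249686. At day 0 it read 9.38 and 6.91 CPM in WT and 4.41 and 5.37 CPM in TKO. At day 2 it read 6.7 and 8.17 CPM in WT and 8.61 and 8.33 CPM in TKO. At day 4 WT was at 0.207 and 0.125 CPM and TKO at 6.96 and 11.9 CPM. At day 7 WT was at 0.0483 and 0 CPM and TKO at 17.1 and 18.3 CPM. The highest group was TKO day 7, apart from all others, while TKO day 4, TKO day 2, WT day 0 and WT day 2 overlapped as neighbours. WT days 4 and 7 formed the bottom of the order.

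Rhox6 (ENSMUSG00000006200.3, from 37826910) and Rhox9 (ENSMUSG00000068048.8, from 37899097) share 92.3% of 568 aligned bases of their transcripts, so part of their reads could be assigned to either. Rhox6 read 1.54 and 1.18 CPM in WT and 2.93 and 3.35 CPM in TKO at day 0. At day 2 it read 1.64 and 1.97 CPM in WT and 4.18 and 4.34 CPM in TKO. At day 4 it read 0.0345 and 0.146 CPM in WT and 1.08 and 1.36 CPM in TKO, and at day 7 it was at 0 in both WT libraries and at 0.546 and 0.551 CPM in TKO. Rhox6 was the member whose genotypes did not overlap on any of the 4 days with TKO always the higher. Rhox9 read 1.35 and 1.31 CPM in WT and 3.05 and 3.32 CPM in TKO at day 0. At day 2 it read 1.28 and 1.95 CPM in WT and 1.94 and 2.2 CPM in TKO, an overlap. At day 4 it read 0.0345 and 0.125 CPM in WT and 0.479 and 0.483 CPM in TKO, and at day 7 it was at 0 in both WT libraries and at 0.201 and 0.248 CPM in TKO. Rhox9 had its highest level in TKO at day 0 and was lower in TKO at each later day.

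Rhox13 (ENSMUSG00000050197.5, 38121219 to 38129967) lies near the telomeric end of the cluster, ahead of Zbtb33. At day 0 it read 5.73 and 3.67 CPM in WT and 2.36 and 2.83 CPM in TKO. At day 2 it read 1.95 and 2.78 CPM in WT and 1.8 and 1.83 CPM in TKO. At day 4 WT was at 0.31 and 0.293 CPM and TKO at 6 and 4.51 CPM, and at day 7 WT was at 0 in both libraries and TKO at 13.9 and 15 CPM. Rhox13 was thus the higher in WT at days 0 and 2, without overlap, and the higher in TKO at days 4 and 7.

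Rhox10 (ENSMUSG00000053909.8), below the filter, ranged from 0 to 0.223 CPM over the WT libraries and from 0 to 0.235 CPM over the TKO libraries. Its largest estimated count in a library was 11. At day 7 it had 1 count over the WT libraries and 12 over the TKO libraries, a ratio of 14 with a 95% counting interval of 2.07 to 598. At day 4 it had 0 counts in WT and 9 in TKO, all of them in replicate 1, so it was at least 3.47-fold higher in TKO against a floor of 3 counts over the WT group. Rhox5 (ENSMUSG00000095180.8) was listed at 0 for each of its annotated transcripts in all 16 libraries, where 3 counts would have been 0.0517 to 0.0866 CPM. The RefSeq start of Rhox5 lies 50.2 kb before the start of the GENCODE gene model used for names. Transcripts without a match in the annotation took 0.946% to 1.05% of a library's counts, and whether a Rhox5 transcript is among them was not tested.

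**Figure D1:**
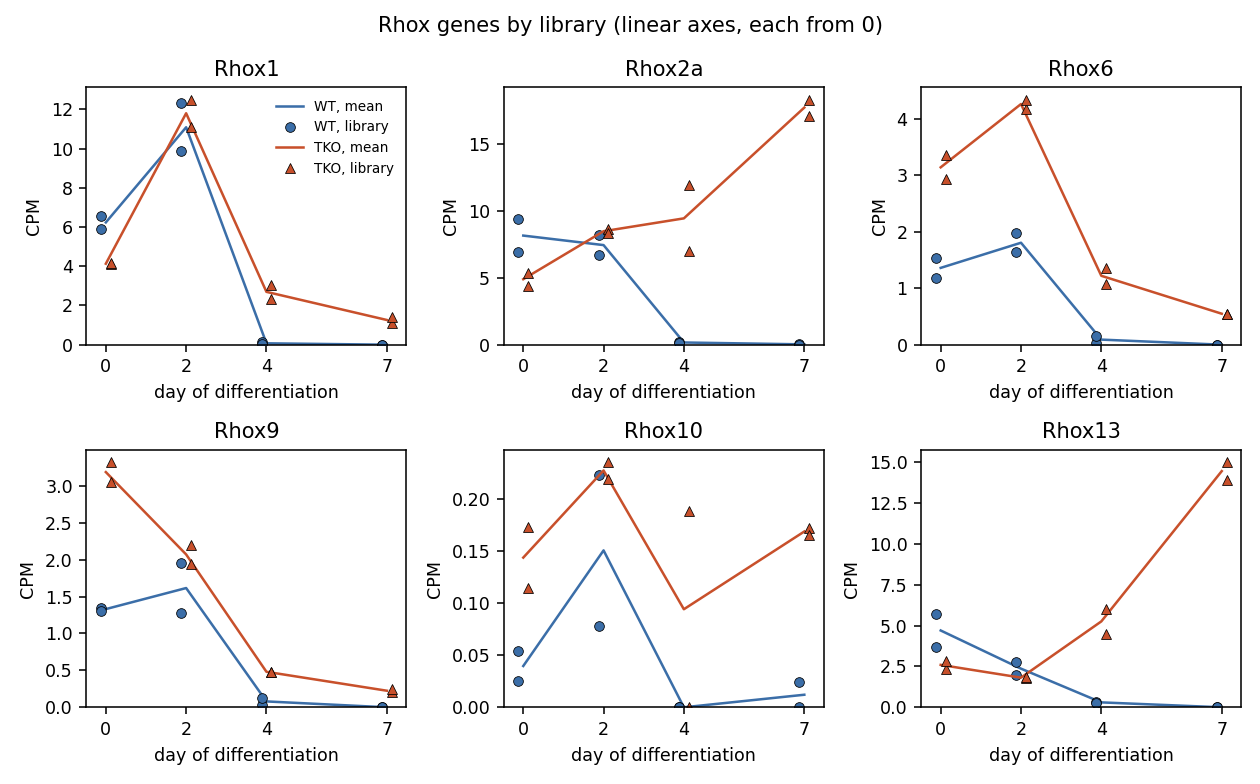
CPM of the 6 members with any counts on linear axes from 0, against the day of differentiation; each point is 1 library, circles for WT and triangles for TKO, and lines join group means. At day 7 Rhox2a reaches 17.1 and 18.3 CPM and Rhox13 13.9 and 15 CPM in TKO, while Rhox1, Rhox6 and Rhox9 lie below their own day 0 in both genotypes.

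The members were also ordered per transcript length, as a description. By mean TPM (a unit scaled for depth and transcript length), Rhox2a led WT day 0 with 16.8 TPM, before Rhox1 with 11.3 TPM, Rhox13 with 8.49 TPM, Rhox9 with 2.33 TPM and Rhox6 with 2.08 TPM. Rhox2a and Rhox1 led TKO day 0 as well, with 11.5 and 8.4 TPM. Rhox9 followed at 6.3 TPM (5.95 and 6.65 TPM), and Rhox6 (5.03 and 5.76 TPM) and Rhox13 (4.86 and 5.82 TPM) overlapped each other, whereas in WT Rhox13 (9.62 and 7.36 TPM) lay above both Rhox9 (2.2 and 2.46 TPM) and Rhox6 (2.17 and 1.99 TPM). Rhox1 led at day 2 in both genotypes, with 20.4 TPM in WT and 24.7 TPM in TKO.

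At day 0, the comparison of genotypes in naive cells, members differed in direction. Rhox6 was higher in TKO by 1.21 ± 0.29 on the log2 scale (fold change ± SE, edgeR adjusted p = 0.0172) and Rhox9 by 1.26 ± 0.29 (0.0153), while Rhox13 was lower, at -0.85 ± 0.25 (0.0399). Rhox2a (-0.73 ± 0.26, 0.0783) and Rhox1 (-0.60 ± 0.23, 0.113) did not pass, although no WT library of either overlapped TKO. Rhox2a was called lower by DESeq2 (-0.72, adjusted p = 0.0496) and by edgeR without WT replicate 2 (-0.92, adjusted p = 0.0346). Thus 2 of 5 tested members were called higher and 1 lower, against 4.52% and 8.16% of all 18489 genes tested. With only 2 libraries a group, the calls depended on each library: without either TKO library no member was called, and without WT replicate 1 only Rhox6 was. In the refits that lost a call the difference of Rhox6 was still 1.05 to 1.32 (adjusted p from 0.0531 to 0.121) and that of Rhox9 1.21 to 1.335 (0.0631 to 0.104). Rhox13 ranged more widely there, from -0.97 to -0.50 (0.127 to 0.282). At day 2 Rhox6 alone was called, higher in TKO by 1.24 ± 0.28 (0.0125), against 7.91% of all genes called higher. That call was lost without any 1 of the 4 libraries (adjusted p from 0.0657 to 0.0976).

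At day 4 all 5 tested members were higher in TKO, against 17.8% of all genes tested. Rhox2a was higher by 5.77 ± 0.37 on the log2 scale (edgeR adjusted p = 2.71e-07) and Rhox1 by 5.11 ± 0.38 (1.59e-06). Rhox13 followed with 4.11 ± 0.30 (1.42e-06), Rhox6 with 3.78 ± 0.41 (3.45e-05) and Rhox9 with 2.61 ± 0.46 (0.00122). The median over the tested members was 4.11, and over all genes 0.01. All 5 stayed called when any 1 library of day 4 was left out. Without TKO replicate 1 or 2, whose Dnmt3a levels stood apart, the count was 5 as well.

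At day 7 all 5 tested members were again higher in TKO, against 23.4% of all genes tested. Rhox13 had 1029 counts over the TKO libraries and 0 in WT, at least 400-fold higher against a floor of 3 counts over the WT group (edgeR adjusted p = 9.3e-09). Rhox1 was at least 35-fold higher by the same floor (2.66e-06), Rhox6 at least 15.2-fold (3.27e-05) and Rhox9 at least 6.22-fold (0.000545). Rhox2a had 1259 counts over the TKO libraries against 2 in WT, a ratio of 734 with a 95% counting interval of 203 to 6068 (1.02e-08). The median of the fitted values was 8.72 on the log2 scale, or 5.13 with the 4 members without WT counts at their bound, against 0.00 over all genes. Leaving out any 1 library of day 7 left 5 members called.

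**Figure D2:**
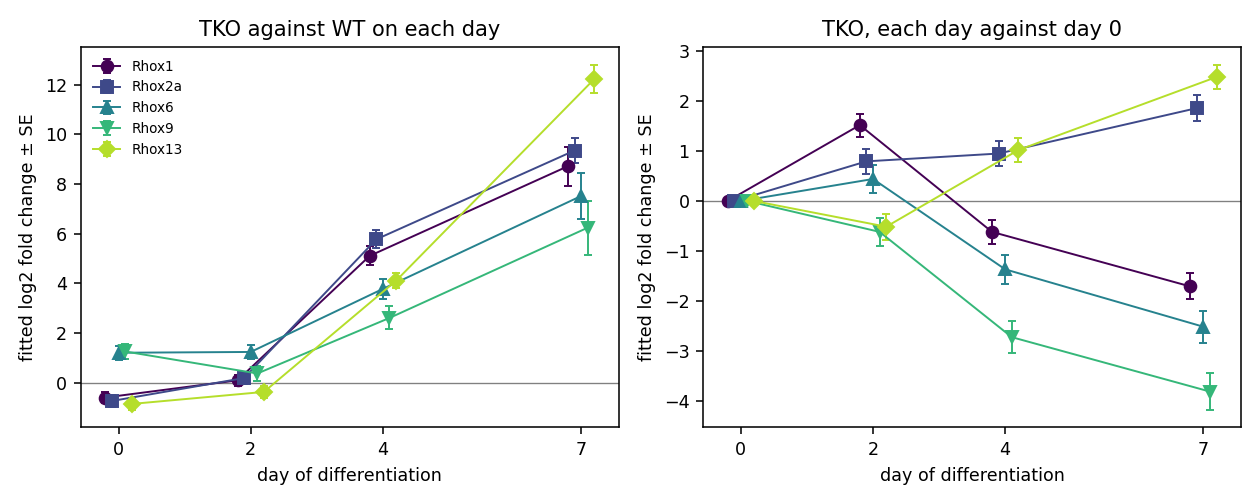
Fitted log2 fold changes with SE of the 5 tested members, TKO against WT on each day (left) and each TKO day against TKO day 0 (right). Left, all 5 lie above 2 at day 4 and above 6 at day 7, where fitted values of genes at 0 in WT depend on the prior count; right, Rhox2a and Rhox13 end at 1.85 and 2.48 and the other 3 below 0.

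Within WT, Rhox1 rose from day 0 to day 2 by 0.83 ± 0.22 on the log2 scale (edgeR adjusted p = 0.00584) and Rhox13 fell by 1.00 ± 0.24 (0.00328). These were 1 of 5 higher and 1 of 5 lower, against 32.9% and 28.6% of all genes. The rise of Rhox1 missed the threshold without WT day 2 replicate 2 (0.0585). By day 4 all 5 had fallen, against 31.2% of all genes lower, with fold changes between -6.32 (Rhox1) and -3.94 (Rhox6) and a median of -4.07. By day 7 all 5 were lower again, against 33.2%. From day 0 to day 7 Rhox1 fell at least 172-fold and Rhox13 at least 129-fold, Rhox6 at least 37.4-fold and Rhox9 at least 36.7-fold. Rhox2a fell with a ratio of 336 (95% counting interval 92.5 to 2778).

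Within TKO the members parted. From day 0 to day 2 Rhox1 rose by 1.52 ± 0.23 (edgeR adjusted p = 8.91e-05) and Rhox2a by 0.79 ± 0.26 (0.017), 2 of 5 against 31.5% of all genes. The call of Rhox2a was lost without TKO day 0 replicate 1 (0.135) and without either library of TKO day 2 (0.067 and 0.0546). By day 4 Rhox13 rose by 1.02 ± 0.24 (0.00274) and Rhox2a by 0.95 ± 0.26 (0.00516), 2 of 5 against 34.4% of all genes. Rhox1 (-0.62 ± 0.24, 0.0381), Rhox6 (-1.36 ± 0.29, 0.00112) and Rhox9 (-2.72 ± 0.32, 8.38e-06) fell, 3 of 5 against 28.6%. The Rhox2a rise at day 4 missed the threshold without TKO day 4 replicate 2, where it was 0.50 (0.0928), and without TKO day 0 replicate 1 (0.0566). The Rhox1 fall missed it without either TKO day 0 library and without TKO day 4 replicate 1 (0.0981, 0.108 and 0.181).

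By day 7 the split in TKO was wider. Rhox13 was up by 2.48 ± 0.25 (edgeR adjusted p = 1.37e-06) and Rhox2a by 1.85 ± 0.26 (2.01e-05) against TKO day 0, 2 of 5 against 36.1% of all genes. Rhox9 (-3.81 ± 0.37, 1.08e-06), Rhox6 (-2.51 ± 0.32, 1.49e-05) and Rhox1 (-1.71 ± 0.26, 7.27e-05) fell, 3 of 5 against 31.7%. Leaving out any 1 of the 4 libraries compared kept all 5 called. The members that fell in TKO were still above WT at day 7, by the bounds given before. The difference between the courses of single members was not tested.

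How the gap between TKO and WT moved after day 0 was tested as an interaction of genotype and day. From day 0 to day 2 no member was called by edgeR or DESeq2, against 5.76% of all genes called higher and 1.80% lower. Under an unadjusted p of 0.05 edgeR gave 2, Rhox2a (adjusted p = 0.141) and Rhox1 (adjusted p = 0.227). Between day 0 and day 4, 4 of 5 were called higher, against 11.6% of all genes: Rhox2a by 6.51 ± 0.46 (edgeR adjusted p = 1.09e-06), Rhox1 by 5.70 ± 0.46 (5.5e-06), Rhox13 by 4.96 ± 0.39 (4.67e-06) and Rhox6 by 2.57 ± 0.52 (0.00513). Rhox9 gave 1.35 ± 0.56 and was not called (0.128), but without WT day 4 replicate 2 it gave 2.44 and was called (0.0342). Between day 0 and day 7 all 5 were called higher, against 15.8% of all genes. Fitted changes ran from 4.99 ± 1.25 for Rhox9 (0.0104) to 13.09 ± 0.67 for Rhox13 (3.71e-08). They depend on the prior count, since 4 of the 5 had no counts in WT at day 7. The Rhox9 call missed the threshold without WT day 7 replicate 1 (0.0515) or 2 (0.0521).

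The other 35 Rhox genes are mostly copies, and 17 of them passed the filter. In TKO against WT, 1 was lower at day 0 (Rhox4e, -1.83 ± 0.33, edgeR adjusted p = 0.00336, and 0.0571 without TKO day 0 replicate 2) and 0 were called at day 2 by edgeR or DESeq2, with 0 at an unadjusted p under 0.05. At day 4 and at day 7, 15 of 17 were higher and 0 lower. The 15 of day 4 were Rhox2b, Rhox2c, Rhox2d, Rhox2e, Rhox2f, Rhox2g, Rhox2h, Rhox2-ps, Rhox4a, Rhox4b, Rhox4c, Rhox4d, Rhox4e, Rhox4g and Rhox7-ps2. At day 7 the list differed by Rhox7-ps1 in place of Rhox4b. Without WT day 7 replicate 2 the calls of Rhox4c, Rhox4d and Rhox7-ps1 were lost there (edgeR adjusted p = 0.217, 0.0838 and 0.0775). Those of Rhox4c (0.0884) and Rhox4d (0.0847) were lost without TKO day 7 replicate 1, and that of Rhox4c without TKO day 7 replicate 2 (0.138). Together with the members, 20 of 22 tested Rhox genes were higher on each of these days. Rhox4c (at most 0.226 CPM in a WT library) and Rhox7-ps1 (at most 0.162 CPM) passed the filter only through TKO libraries. So did Rhox4a2 (at most 0.103 CPM in WT), which was not called on either day. Rhox2d (0.243 and 0.352 CPM in WT at day 0) and Rhox2e (0.378 and 0.0754 CPM there) needed TKO libraries to pass as well. The calls of Rhox4c, Rhox7-ps1, Rhox2d and Rhox2e therefore follow in part from the filter. The counts of 15 of 17 and 20 of 22 include such calls. The median over all 22 was 4.96 at day 4 and 7.30 at day 7 as fitted, and 4.41 and 5.40 with genes without WT counts at their bound. For scale, of 727 tested X-linked genes outside the cluster 25.9% were called higher at day 4 and 34% at day 7.

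The transcripts of Rhox2b to Rhox2h were 95.2% to 97.2% identical to Rhox2a, so counts of single copies are uncertain, and the copies were also summed. The 8 Rhox2 genes together read 14.3 and 11.4 CPM in WT at day 0, and in TKO 11 and 21.1 CPM at day 4 and 38.2 and 40.7 CPM at day 7. As 1 feature they were higher in TKO by 6.32 ± 0.38 at day 4 (edgeR adjusted p = 2.65e-07) and 9.28 ± 0.46 at day 7 (8.96e-09). Rhox2a held 63.2% of the Rhox2 counts in WT at day 0. In TKO it held 60% at day 0, 69.3% at day 2, 59% at day 4 and 44.8% at day 7. By these uncertain estimates the other copies took a larger share at TKO day 7 than on earlier TKO days, which was not tested. The summed Rhox2 rise from TKO day 0 to day 2, 0.58 ± 0.25, did not pass (0.0659), unlike that of Rhox2a alone.

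By group means Rhox4 took another course in time than Rhox2, a difference that was not tested. The 8 Rhox4 genes together averaged 7.98 ± 1.37 CPM (SD, n = 2) in WT and 3.45 ± 0.14 CPM in TKO at day 0, lower in TKO by 1.21 ± 0.27 on the log2 scale (edgeR adjusted p = 0.0122). In WT they fell to 2.21 ± 0.17 CPM at day 2 (-1.85 ± 0.28, 5.97e-05), when the Rhox2 sum had not fallen past the threshold (-0.37 ± 0.25, 0.219). In TKO they reached 16.1 ± 7.55 CPM at day 4, with 10.8 CPM in replicate 1 and 21.5 CPM in replicate 2, and 8.04 ± 0.78 CPM at day 7. Against TKO day 0 they were higher at day 4 by 2.22 ± 0.27 (8.08e-06) and at day 7 by 1.22 ± 0.27 (0.00135). Against WT they were higher by 4.40 ± 0.31 at day 4 (6.06e-07) and 4.16 ± 0.34 at day 7 (6.01e-07). Rhox3, the weakest group, had 0 counts in WT and 44 in TKO at day 7 and was called there (0.000415) and not at day 4 (0.16). One of its copies, Rhox3e, was called lower in TKO at day 0 by edgeR without the filter (adjusted p = 0.0315), where 4.69% of all genes were called lower. The Rhox3 copies summed were not called at day 0 (-1.49 ± 0.75, edgeR adjusted p = 0.224), and reads of single copies are uncertain.

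**Figure D3:**
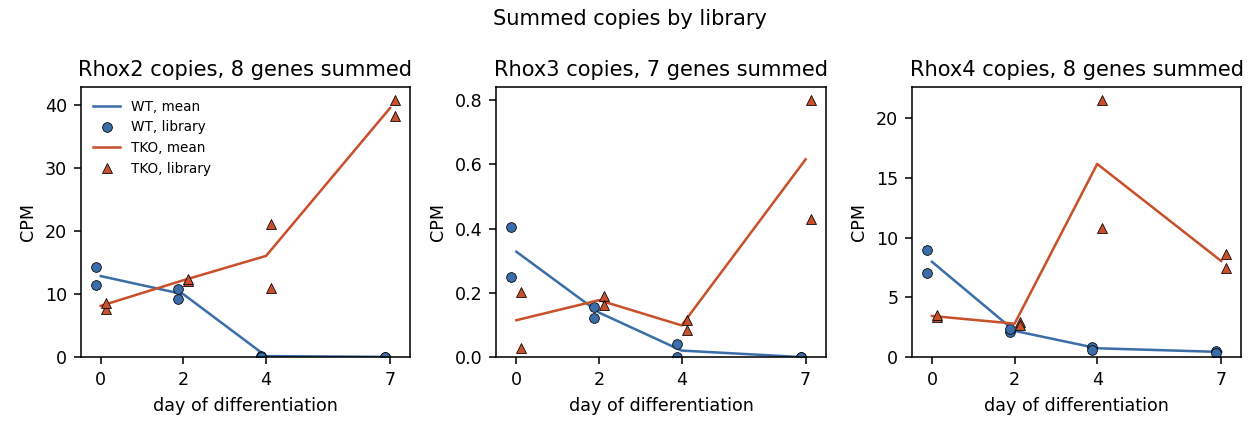
CPM of the summed Rhox2, Rhox3 and Rhox4 copies by library (circles WT, triangles TKO, lines join group means, linear axes from 0). In TKO Rhox2 is highest at day 7 (38.2 and 40.7 CPM) and Rhox4 at day 4 (10.8 and 21.5 CPM).

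**Figure D4:**
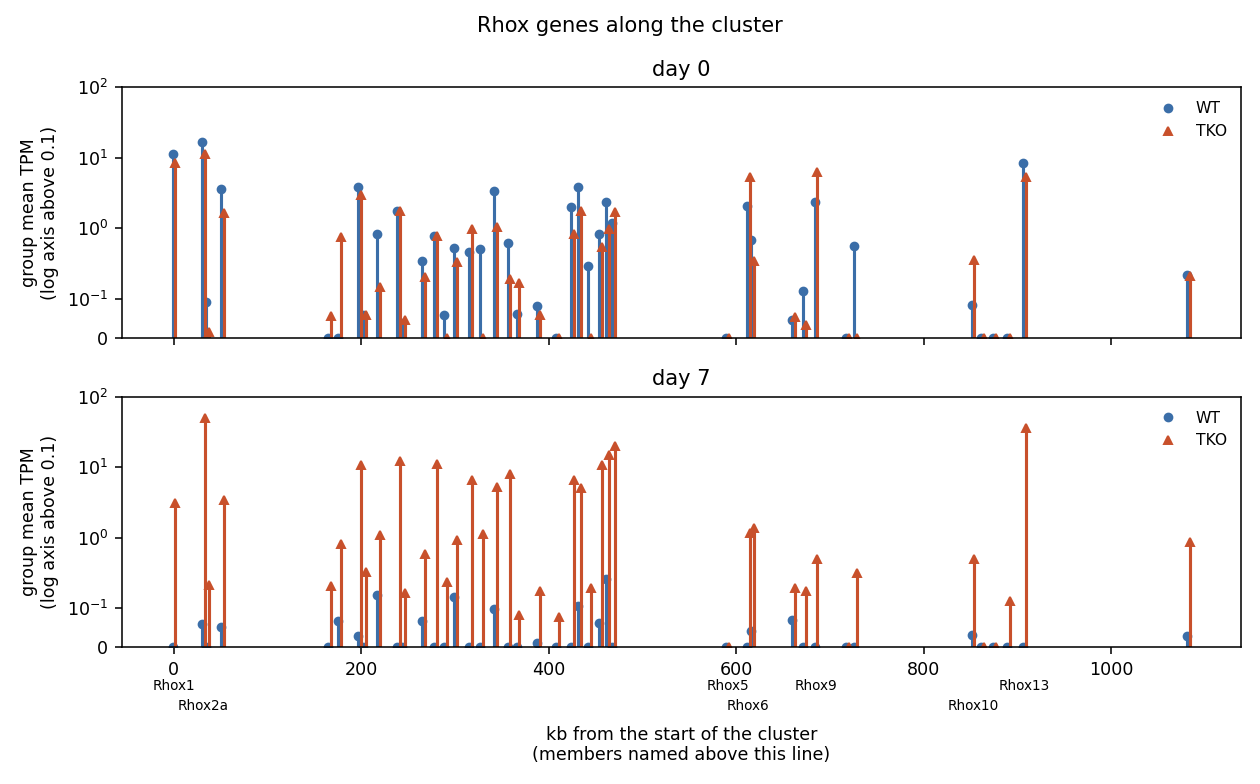
Group mean TPM of all 42 Rhox genes against distance from the start of the cluster at day 0 (top) and day 7 (bottom), circles WT and triangles TKO, with the axis logarithmic above 0.1. At day 0 both genotypes have transcripts along the cluster, with genes higher in either (Rhox4e 3.34 TPM in WT and 1.05 TPM in TKO, Rhox9 2.33 and 6.3 TPM), and at day 7 TKO transcripts reach from Rhox1 to the telomeric end while WT lies near 0.

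Genes next to the cluster were read from the annotation, the 5 nearest protein-coding genes on each side. Of these and of the genes between Rhox genes, 10 were tested. Gm9, a predicted gene 2.76 kb from Rhox1, was the neighbour that moved like the members. It read 2.03 and 1.36 CPM in WT and 0.74 and 0.895 CPM in TKO at day 0, and at day 7 it was at 0 in both WT libraries and at 1.26 and 1.29 CPM in TKO. It was higher in TKO by 6.14 ± 0.56 at day 4 (edgeR adjusted p = 8.14e-06) and was called at day 7 (9.31e-06). Tmem255a, which lies between Rhox13 and the last Rhox pseudogene, was higher at day 7 by 3.45 ± 0.50 (0.000127). Zbtb33, the gene of the methyl-CpG binding protein Kaiso beside it, was not called at day 7 (0.23 ± 0.11, 0.11). Nkap, on the centromeric side, was lower at day 7 by a small amount (-0.28 ± 0.07, 0.00727). At day 7, 2 of 10 neighbours were higher and 4 lower, beside 23.4% and 21.1% of all genes, and without Gm9 and Tmem255a they ranged from -0.56 to 0.23.

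Other X-linked genes of the cancer-testis type, the Mage, Xlr, Tex13 and related genes that are also silent in most somatic cells, were listed beside the cluster, 23 of 26 tested. In TKO against WT, 1 was higher and 8 were lower at day 0, 19 higher and 0 lower at day 4, and 22 higher and 1 lower at day 7. Of all genes, 4.52% were higher and 8.16% lower at day 0, 17.8% and 11.1% at day 4, and 23.4% and 21.1% at day 7; the same shares are the background of the lists that follow. The median of the cancer-testis genes was 2.40 at day 4 and 4.71 at day 7, beside all-gene medians of 0.01 and 0.00. Tex13b and Mageb4 had the lowest adjusted p among the higher ones on each of these days. Factors known to repress germline genes, such as the Pcgf6, Max, L3mbtl2 and E2f6 complex, had few calls in either direction. At day 4, 1 of 18 was higher (Cbx3) and 2 were lower (Pcgf6 and L3mbtl2). At day 7, 1 was higher (Cbx3) and 3 were lower (L3mbtl2, Rybp and E2f6). Of 12 genes of the DNA methylation machinery 2 were higher and 2 lower at day 4, the lower ones being Dnmt1 and Dnmt3b, and 2 were higher and 4 lower at day 7.

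Markers of other cell states also differed between genotypes, not all in the same direction on both days. Of 12 naive pluripotency markers 8 were higher in TKO and 0 lower at day 4, with summed levels of 345 to 431 CPM in WT and 405 to 471 CPM in TKO. At day 7, 4 were higher and 3 lower, with 242 to 259 CPM in WT and 263 to 268 CPM in TKO. Of 11 formative and primed epiblast markers 4 were higher and 2 lower at day 4 (2045 to 2228 CPM in WT, 1067 to 1580 CPM in TKO), and 2 higher and 4 lower at day 7 (1802 to 1978 and 1716 to 1737 CPM). Of 13 endoderm markers 7 were higher and 1 lower at day 4, with 18 to 25.6 CPM in WT and 18.6 to 71.3 CPM in TKO. At day 7, 4 were higher and 4 lower, with 118 to 157 and 154 to 177 CPM. Of 10 primordial germ cell markers 5 were higher and 1 lower at day 4, with 83.2 to 89.8 CPM in WT and 88 to 103 CPM in TKO, and 4 higher and 1 lower at day 7, with 78.8 to 101 and 125 to 131 CPM. Of 8 tested two-cell stage markers 1 was higher and 0 lower at day 4, with 10.9 to 22 CPM in WT and 14 to 40.8 CPM in TKO. At day 7 all 8 were higher, from 0.0965 to 0.266 CPM in WT to 201 to 377 CPM in TKO, and Zscan4c, Zscan4d, Zscan4f and 3 others were at 0 in WT. Trophoblast markers, where Rhox genes are normally active, had 4 of 11 tested higher and 3 lower at day 4, with summed levels of 170 to 207 CPM in WT and 72.6 to 89.9 CPM in TKO, and 3 higher and 5 lower at day 7, with summed levels of 862 to 890 CPM in WT and 381 to 450 CPM in TKO. Feeder and stromal fibroblast markers had 2 of 8 tested higher and 2 lower at day 4, with 67.4 to 94.7 CPM in WT and 138 to 144 CPM in TKO, and 3 higher and 0 lower at day 7, with 313 CPM in each WT library and 465 to 492 CPM in TKO. The part of these cell states in the Rhox levels was not tested.

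Among the members themselves, log2 CPM over the 16 libraries correlated between 0.622 (Rhox9 with Rhox13) and 0.967 (Rhox6 with Rhox9). Rhox2a with Rhox13 gave 0.952 and Rhox1 with Rhox6 0.95. All libraries share the genotype and day structure, so these values describe that structure and carry no test. For Rhox6 with Rhox9, reads that could be assigned to either may enter the value as well. Over the 16 libraries the protein-coding genes outside the cluster with the highest Pearson r to Rhox13 were Tdrd9, a piRNA pathway helicase (0.985), and the X-linked AV320801 (0.981) and Gm5128 (0.974). For Rhox2a they were Cox7b2 (0.984), the X-linked Gm6880 (0.982) and Mgl2 (0.975). For Rhox1 they were Epb41l4a (0.979), 1700029P11Rik (0.971) and Mlana (0.97), for Rhox6 P2rx7 (0.972), Rpl3l (0.968) and the tubulin gene Tuba3a (0.964), and for Rhox9 Immt (0.984), Kank3 (0.975) and Nfix (0.975).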

How the data were processed

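The deposited tables hold, for each transcript and library, estimated counts (expected counts), not normalised, and TPM, per the file headers, with effective lengths in bases. The submitters' processing notes name kallisto and the builds GRCm38 and mm10; the annotation is not given in the sources used here. Of 119414 transcripts, 116728 matched GENCODE vM21 by identifier without version. Counts of a gene's transcripts were added up and rounded. The reference is of another mouse strain than E14, so copies of the cluster may differ in number or sequence.

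edgeR 4.0.16 in R 4.3.3 (TMM, filterByExpr, quasi-likelihood fit, robust) was run on 18489 genes and all 16 libraries, 1 mean per group, 8 residual degrees of freedom. The call was an adjusted p (Benjamini-Hochberg, all tested genes) under 0.05. SE is |log2 fold change| divided by the root of the F statistic. CPM use effective library sizes. TPM, as deposited by the authors, served to order members, to plot the Rhox genes along the cluster and to weight effective lengths for the offset. Intervals and floors (3 counts) cover counting error only. The fit was tested on simulated data. Alternatives were DESeq2 1.42.0, upper-quartile scaling, no filter, a stricter filter (1 CPM in 2 libraries), an effective-length offset, summed copies, a replicate block, a fit of only the libraries compared, and leaving out each library. Promoter windows came from RefSeq (GRCm38.p6).

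The members, gene lists and tests were chosen with earlier results of these data known. Named were all members, Rhox genes called in TKO against WT, Dnmt1 and its relatives, up to 3 called genes per list, the 5 nearest neighbours a side, and the 3 genes most like each tested member. The result of 1 gene list is not reported here.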

Additional observations from a re-analysis of the deposited data

Results flagged for a closer look

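Effects of genotype that differed between days by a test of the difference itself were found for 4 members from day 0 to day 4 and for 5 from day 0 to day 7 (edgeR, interaction of genotype and day, log2). From day 0 to day 4 the difference between TKO and WT grew by 6.51 for Rhox2a (adjusted p = 1.09e-06), 5.70 for Rhox1 (5.5e-06), 4.96 for Rhox13 (4.67e-06) and 2.57 for Rhox6 (0.00513). From day 0 to day 7 it grew by 13.09 for Rhox13 (3.71e-08), 10.08 for Rhox2a (4.35e-08), 9.31 for Rhox1 (6.18e-06), 6.31 for Rhox6 (0.00114) and 4.99 for Rhox9 (0.0104). The day 7 values of Rhox1, Rhox6, Rhox9 and Rhox13 depend on the prior count, since WT had no counts there.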

How the results depend on the processing

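Over the alternatives other than leaving out a library, the counts of members called at days 4 and 7 against WT were 5, or 6 without the filter, which adds Rhox10. The smaller counts moved. For TKO against WT at day 0 (3 members) the count was 1 with only the libraries compared and 0 to 3 without 1 library. At day 2 (1 member) it was 0 without any 1 library. For WT day 2 against day 0 (2) it was 1 to 2. For TKO day 2 against day 0 (2) it was 1 with copies summed, 5 with only the libraries compared, and 1 to 2 without 1 library. For TKO day 4 against day 0 (5) it was 3 to 4 without 1 library. The cause was not tested, apart from fewer samples in the fit.

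Of 839 refitted member fold changes 795 kept direction and side of the threshold, 31 lost the call, 6 gained one and 7 changed sign, all 7 near 0 and uncalled. These were, by library left out, Rhox1 in TKO against WT at day 2 without WT day 2 replicate 1 (-0.059; 0.26 at the other end), Rhox2a in WT day 2 against day 0 without WT day 0 replicate 1 (0.104) or day 2 replicate 1 (0.008; -0.364 to 0.104 in all), Rhox9 there without WT day 2 replicate 2 (-0.057 to 0.551), and the Rhox6 interaction of day 2 without WT day 0 replicate 1 (-0.168), WT day 2 replicate 1 (-0.095) or TKO day 0 replicate 1 (-0.054; -0.168 to 0.214 in all). Rhox4a2, TKO day 2 against day 0, was called lower (adjusted p = 0.0434), yet was 0 without TKO day 0 replicate 2 (range -7.999 to 0). Rhox13 at day 0 also lost its call with the effective-length offset (edgeR adjusted p = 0.0613), and Rhox1 in TKO day 4 against day 0 with that offset (0.0616) and upper-quartile scaling (0.0529).

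With the replicate block the count at day 0 was 2 in place of 3, as Rhox13 gave 0.0591; at days 2, 4 and 7 against WT it was 1, 5 and 5, and the counts over time and of interactions did not change. The replicate numbers are not stated to mark a shared day. Deviations of same-numbered libraries of WT and TKO of 1 day correlated from -0.114 to 0.044. Over all 28 pairs of groups the correlations ran from -0.332 (WT day 0 with WT day 2) to 0.074. Low counts in WT at days 4 and 7 limit every fold change there, so bounds are given for day 7.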

Other observations

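Of the 20 Rhox genes below the filter, 4 (Rhox5, Rhox11, Rhox11-ps1 and Rhox11-ps3) were listed at 0 in every library. The other 16 were fitted by edgeR without the filter, where 14.7% of 27818 genes were called higher in TKO at day 7 and 11.0% at day 4. Rhox10 and Rhox7a were called at day 4 (adjusted p = 0.0342 and 0.0229). Rhox3e (0.00121), Rhox7a (0.00222), Rhox10 (0.0409) and Rhox4f (0.049) were called at day 7, all higher in TKO. Rhox3e was also called at day 0, there lower in TKO (0.0315), from 9 and 5 counts in WT and 0 in both TKO libraries. The sum of the Rhox3 copies was not called at day 0 (edgeR adjusted p = 0.224). Rhox8 gave 1.15 ± 1.09 on the log2 scale at day 7 (edgeR adjusted p = 0.532).

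Rhox7-ps2, a pseudogene, rose from day 0 to day 2 in both genotypes by edgeR, from 0.324 and 0.226 to 1.4 and 1.4 CPM in WT and from 0.0854 and 0.115 to 1.42 and 1.78 CPM in TKO. At day 7 it stood at 0.0241 CPM in each WT library and at 0.949 and 1.57 CPM in TKO. Rhox2-ps, the next pseudogene in the cluster, was called higher from day 0 to day 2 in both genotypes as well. Its mean went from 0.128 to 1.18 CPM in WT and from 0.172 to 1.92 CPM in TKO. At day 7 it was at 0 in WT and at a mean of 1.71 CPM in TKO. Both were singled out here after their values were seen.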
